A study of Homo sapiens with 8 samples.

Results

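Bleomycin at 480 µg/ml was compared with bleomycin at 240 µg/ml, the last step of a dose series, across all genes of the count table: 4 of the 8 libraries belong to these doses, 2 each, and 18303 of 46427 gene symbols had enough counts to be tested. The question was which responses of the cells still grew when the dose went up by this step and which had levelled off. The cells came from H7, a human embryonic stem cell line of wild type genotype. They were led through definitive endoderm, anterior foregut and ventralized foregut to lung progenitors over 21 days and then kept on inserts, 3 days submerged and 7 days at an air-liquid interface, to become cells labelled as differentiated type 2 alveolar cells. The groups were 480 µg/ml, 240 µg/ml, 24 µg/ml and untreated control. Drug was laid on the apical side in 500 µl for 24 h, and the labels give a stock of 10 µg/ml, lower than every dose used. All groups came from 1 cell line, and the labels do not say that replicates were separate cultures, so a p-value here speaks of variation among the libraries at hand, and that variation may be technical.

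Bleomycin is a glycopeptide drug that cuts DNA and is used to model lung fibrosis. Broken DNA activates p53, a transcription factor that turns on genes of cell cycle arrest, feedback, repair and death. Cells that stop cycling lose the messages of DNA replication and mitosis, many of which are repressed by the DREAM complex, which reads the cell cycle genes homology region (CHR) and works beside CCAAT boxes in mitotic promoters.

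The label of the cells was only partly borne out by defining markers. Of 20 type 2 alveolar genes 17 passed the filter, but so did 20 of 20 hepatic and 17 of 18 intestinal genes, so passing was not particular to type 2 cells. Among the 17 was ABCA3, the lipid transporter of lamellar bodies, with 25.7 and 32.2 CPM at 480 µg/ml, against 19.4 and 16.6 CPM at 240 µg/ml, where CPM are counts scaled to library size. SFTPB, a surfactant protein, had 5.21 and 7.73 CPM at 480 µg/ml, against 11.5 and 11.2 CPM at 240 µg/ml. SFTPC, SFTPA1 and SFTPA2, surfactant proteins of type 2 cells, did not pass the filter, and the largest count in any library was 7 for SFTPC, 2 for SFTPA1 and 7 for SFTPA2. NKX2-1, the lung lineage factor, had 0.263 and 0.308 CPM at 480 µg/ml, against 0.288 and 0.261 CPM at 240 µg/ml. CDX2, the intestinal lineage factor, stood far above NKX2-1 at both doses (values given below). AFP, a fetal liver protein, took 5.50% and 4.58% of all counts at 480 µg/ml, against 6.34% and 5.84% at 240 µg/ml. In bulk RNA, fewer cells of a type and less RNA per cell cannot be told apart.

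Total counts ran from 53431773 to 67715984 per library. CPM values were scaled with TMM factors, and 3 counts, the limit that a count of 0 allows, equal 0.0443 to 0.0561 CPM across libraries (counting error only). The libraries at 480 µg/ml stood apart from each other. For genes whose average log2 CPM was 3 or more, the SD of the log2 difference between replicates was 0.435 at 480 µg/ml, against 0.171 at 240 µg/ml, 0.192 at 24 µg/ml and 0.157 in control. That difference followed transcript length: replicate 1 minus replicate 2 at 480 µg/ml had a median log2 difference of -0.39 in the shortest of 5 equal length groups and 0.39 in the longest. Mitochondrially encoded genes took 1.16% and 2.33% of counts at 480 µg/ml, against 1.52% and 1.3% at 240 µg/ml. Nuclear ribosomal RNA took 1.21% and 3.30% at 480 µg/ml, against 1.57% and 1.63% at 240 µg/ml. The mean of the 480 µg/ml libraries was level along transcript length, with medians between -0.00 and 0.01 log2 in every length group. The part of this pattern in any gene's value was not tested except through the alternative fit with a length correction.

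**Figure D1:**
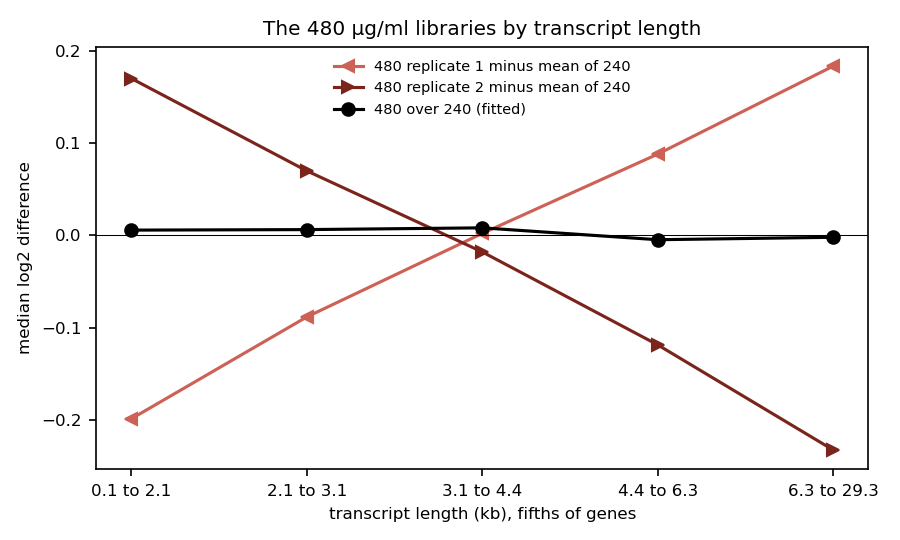
Median log2 difference (y axis) of each 480 µg/ml library from the mean of the 240 µg/ml libraries, and of the fitted 480 over 240 fold change, over 5 equal groups of genes by transcript length in kb (x axis). Replicate 1 runs from -0.20 in the shortest to 0.18 in the longest group and replicate 2 from 0.17 to -0.23, while the fitted fold change stays near 0.

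Across the step, 47 genes changed at an adjusted p under 0.05 (edgeR's quasi-likelihood test with Benjamini-Hochberg adjustment over all genes tested), which is 0.257% of genes tested. Of these, 5 were higher at 480 µg/ml, 0.0273% of genes tested, and 42 were lower, 0.229%. At an unadjusted p under 0.05 there were 2055 genes, 744 higher and 1311 lower. Both 480 µg/ml libraries lay above both 240 µg/ml libraries for 17.3% of genes and below them for 19% of genes. The genes that fell included members of the mitosis and DNA replication lists, and receptors and transporters known from gut and liver, which were grouped after their values were seen. The genes that rose were SEMA4F, H2BC4, H1-2, ELOVL4 and MFSD1.

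The count of calls depended on single libraries. It was 0 without either control library, without either 240 µg/ml library and without replicate 2 at 24 µg/ml, and 8 without replicate 1 at 24 µg/ml. Without replicate 1 at 480 µg/ml it was 397 higher and 1033 lower, and without replicate 2 it was 615 higher and 856 lower, where the lone 480 µg/ml library is assumed to vary like the other groups. In each of these 8 fits all 47 genes kept their direction. All 47 also kept it, with an unadjusted p under 0.05, in a fit with a weight per group (limma voom). In that fit the spread of the 480 µg/ml libraries counted for itself, 0 genes were called and 909 had an unadjusted p under 0.05. The 47 were chosen from the same libraries that these fits reuse, so a kept direction is no independent support.

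**Figure D2:**
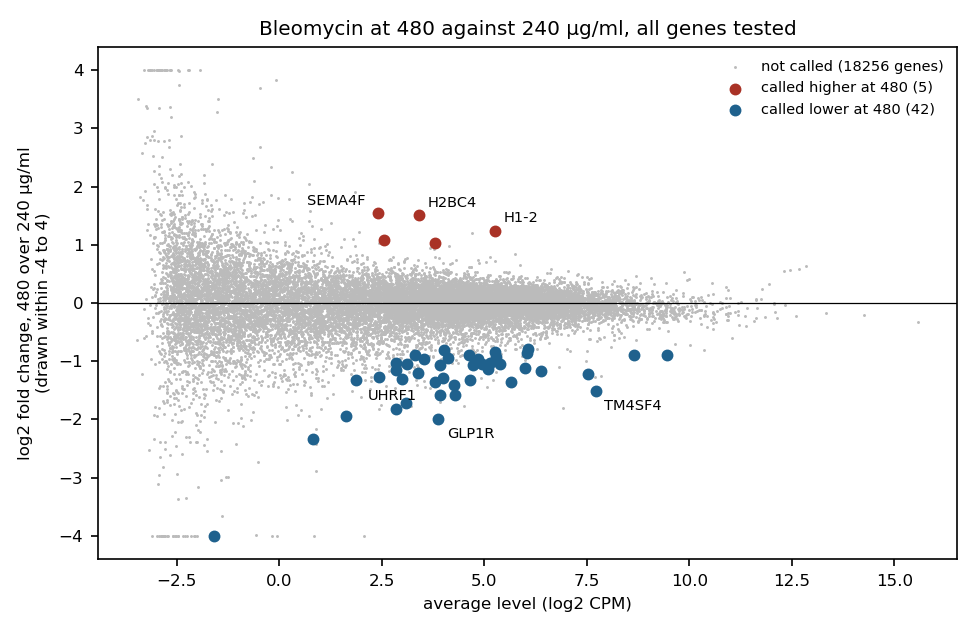
Log2 fold change of 480 over 240 µg/ml (y axis, drawn within -4 to 4) against the average level in log2 CPM (x axis) for each gene tested. Red points are the 5 genes called higher and blue points the 42 called lower; grey points were not called.

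The step from untreated cells to 240 µg/ml set the frame for what could still grow. It had changed 945 genes upward (5.16% of genes tested) and 947 downward (5.17%), and 480 µg/ml against control had changed 2550 upward and 2535 downward (13.9% each). These comparisons and the step from 240 to 480 µg/ml share libraries, so their values are given side by side. Of the 945 genes that had risen at 240 µg/ml, 5 rose further (0.529%) and 387 (41%) had levelled off, meaning that the 95% interval of 480 over 240 lay within 1.5-fold in either direction, and 553 (58.5%) were not settled. Of the 947 genes that had fallen at 240 µg/ml, 29 fell further (3.06%), 295 (31.2%) had levelled off and 623 (65.8%) were not settled. No responder turned back in the quasi-likelihood test (0 genes), where 51 moved against their earlier direction at an unadjusted p under 0.05, and DESeq2 called 12 that did. Among all genes tested, 41.7% had an interval within 1.5-fold, so the share of levelled-off genes among responders was not above the share of genes in general. A gene that still grew by less than 1.5-fold at this doubling can meet the definition, so it does not show a plateau. The number of levelled-off responders moved with the fit, since each fit set both the intervals and which genes counted as responders. It was 682 in the main fit, 414 with the replicate number as a block, 970 by DESeq2 and 1955 with a weight per group. Of the 47 called genes, 34 were responders at 240 µg/ml in the same direction, and the other 13 had not been called at 240 µg/ml against control and were all lower at 480 µg/ml.

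Mitosis genes that had fallen at 240 µg/ml fell further at 480 µg/ml in 7 cases. The list of G2 phase and mitosis genes had 34 of 34 members tested, of which 7 were called lower at 480 than at 240 µg/ml and 0 higher, against 0.229% of all genes called lower. DESeq2 called 22 lower, and 30 were lower at an unadjusted p under 0.05. For 33 of 34 both 480 µg/ml libraries lay below both 240 µg/ml libraries, against 19% of all genes. The median log2 fold change over the list was -0.67 for 480 over 240 µg/ml, against 0.00 for all genes tested, and -0.83 for 240 µg/ml over control, where 27 of 34 had fallen. The median was -0.47 for replicate 1 and -0.88 for replicate 2 at 480 µg/ml against the mean of 240 µg/ml, so the sign was the same in both libraries and the size was not. The list had 0 calls without any 1 of the control, 24 or 240 µg/ml libraries, 32 without replicate 1 and 17 without replicate 2 at 480 µg/ml.

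KIF20A, a kinesin that builds the midzone of the dividing cell, had 10.3 and 10.4 CPM at 480 µg/ml, against 22.4 and 22.9 CPM at 240 µg/ml, 51.4 and 51.2 CPM at 24 µg/ml and 49.7 and 50.8 CPM in control. The 480 µg/ml libraries lay below all others, and the log2 fold change over 240 µg/ml was -1.13 ± 0.11 (SE, n = 2 each; adjusted p = 0.014). PLK1, a kinase that drives entry into and exit from mitosis, had 13 and 13.9 CPM at 480 µg/ml, against 27.3 and 27.7 CPM at 240 µg/ml, with a log2 fold change of -1.04 ± 0.13 (adjusted p = 0.0337). Replicates of PLK1 lay close together and the groups were well apart. CDC20, an activator of the anaphase-promoting complex, had 13.2 and 17 CPM at 480 µg/ml, against 32.2 and 30.3 CPM at 240 µg/ml (log2 fold change -1.05, adjusted p = 0.0402). UBE2C, the ubiquitin-conjugating enzyme of that complex, had 11 and 13.3 CPM at 480 µg/ml, against 25.7 and 24.7 CPM at 240 µg/ml (log2 fold change -1.05, adjusted p = 0.0402). For both genes the groups did not overlap.

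CCNB1, the cyclin of mitotic entry, had 32.8 and 31.4 CPM at 480 µg/ml, against 58.2 and 53.4 CPM at 240 µg/ml and 89.0 and 87.7 CPM in control. PRC1, which bundles midzone microtubules, had 17.8 and 15.5 CPM at 480 µg/ml, against 28.8 and 30.6 CPM at 240 µg/ml. AURKB, the kinase of the chromosomal passenger complex, had 6.33 and 6.66 CPM at 480 µg/ml, against 11.4 and 13.6 CPM at 240 µg/ml. All 3 were lower in both 480 µg/ml libraries and were called at an adjusted p of 0.0402. Outside the list, the motors KIF18B and KIFC1, the spindle proteins PSRC1, FAM83D and TROAP, the separase gene ESPL1 and the scaffold gene IQGAP3 were also called lower, with log2 fold changes from -1.04 for KIF18B to -0.80 for ESPL1. Members that did not pass included MKI67, the Ki-67 antigen, with 32.4 and 18.1 CPM at 480 µg/ml, against 46.2 and 41.3 CPM at 240 µg/ml (log2 fold change -0.80, adjusted p = 0.224). MKI67 was lower in both 480 µg/ml libraries, which lay far from each other. The smallest difference on the list was that of PTTG1, securin, with 15.7 and 17.2 CPM at 480 µg/ml, against 20.7 and 19.0 CPM at 240 µg/ml (log2 fold change -0.27). CENPE, a long kinetochore motor, was the member whose groups overlapped, with 13.1 and 4.2 CPM at 480 µg/ml, against 11.6 and 11.5 CPM at 240 µg/ml.

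Promoters of the genes that moved together are shown to let their CHR and CCAAT elements be seen, in lower case with each match in capitals. They are the 120 bases before the RefSeq start (GRCh38.p14), for PLK1 (chr16:23678769-23678888, plus strand), CDC20 (chr1:43358861-43358980, plus strand), KIF20A (chr5:138178992-138179111, plus strand), and the histone gene H2BC4 (chr6:26123927-26124046, minus strand), which rose.
PLK1: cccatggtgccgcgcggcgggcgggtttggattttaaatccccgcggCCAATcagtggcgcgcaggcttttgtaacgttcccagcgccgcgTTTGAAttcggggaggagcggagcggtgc
CDC20: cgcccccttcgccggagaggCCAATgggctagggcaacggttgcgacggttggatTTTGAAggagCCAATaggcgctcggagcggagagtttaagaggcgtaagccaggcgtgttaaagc
KIF20A: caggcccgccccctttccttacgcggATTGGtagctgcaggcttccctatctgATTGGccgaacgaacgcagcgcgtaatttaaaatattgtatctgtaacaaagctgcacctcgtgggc
H2BC4: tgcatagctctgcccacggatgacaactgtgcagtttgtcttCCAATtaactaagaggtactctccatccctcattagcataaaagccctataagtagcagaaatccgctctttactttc
The elements searched were CHR, spelled TTTGAA or TTCGAA, and the CCAAT box, spelled CCAAT, on both strands of the 300-base RefSeq window of each gene, which runs to 50 bases past the start. PLK1 and CDC20 hold a CHR and a CCAAT box within these bases, whereas KIF20A and H2BC4 hold CCAAT boxes alone. Among 34 mitosis genes 29 had a promoter entry, and 20 of these (69%) held a CHR, against 11.7% of the 13134 tested genes with an entry. A CCAAT box was present in 79.3% of the mitosis genes, against 36% of all, and both elements in 62.1%, against 4.9%. Of the 42 genes called lower, 30 had an entry: 40% held a CHR and 26.7% held both elements. The 6 of these that are on the mitosis list held a CHR in 50%, and the 24 that are not held one in 37.5%. Of the 18 histone genes tested, 27.8% held a CHR, all of them with a CCAAT box, and 88.9% held a CCAAT box. DNA replication genes held a CHR in 5.88%, and the 21 genes of p53 arrest, feedback and repair with an entry held none in this window. A match is a description of letters and not a site.

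Genes of chromosome copying had values lower at 480 than at 240 µg/ml, with few calls. Of 39 DNA replication genes, 2 were called lower, UHRF1 and MCM7, and 0 higher. Among all genes tested, 0.229% were called lower and 1311 of 18303 were lower at an unadjusted p under 0.05. DESeq2 called 9 lower, and 27 were lower at an unadjusted p under 0.05. The count was 15 without replicate 1 and 14 without replicate 2 at 480 µg/ml, 1 without replicate 1 at 24 µg/ml, and 0 without any 1 of the control or 240 µg/ml libraries or replicate 2 at 24 µg/ml. For 35 of 39 both 480 µg/ml libraries lay below both 240 µg/ml libraries, against 19% of all genes, and the median log2 fold change was -0.51 (-0.42 for replicate 1 and -0.44 for replicate 2). UHRF1, which brings the maintenance DNA methyltransferase to newly copied DNA, had 2.63 and 2.84 CPM at 480 µg/ml, against 6.59 and 7.35 CPM at 240 µg/ml, 20.5 and 22.1 CPM at 24 µg/ml and 23.4 and 24.2 CPM in control. The log2 fold change of UHRF1 was -1.35 ± 0.14 for 480 over 240 µg/ml (adjusted p = 0.014) and -1.77 for 240 µg/ml over control. MCM7, a subunit of the replicative helicase, had 24.3 and 29.6 CPM at 480 µg/ml, against 49.5 and 48.1 CPM at 240 µg/ml (log2 fold change -0.86, adjusted p = 0.0444). For both called genes the groups were well apart. FEN1, the flap nuclease, stood just outside the threshold with 9.45 and 10.1 CPM at 480 µg/ml, against 16.1 and 17.4 CPM at 240 µg/ml (adjusted p = 0.0555). PCNA, the sliding clamp and also a p53 target, had 44.7 and 59.0 CPM at 480 µg/ml, against 50.4 and 51.8 CPM at 240 µg/ml, and its groups overlapped. Genes of homologous recombination and the Fanconi pathway had 0 of 20 called by the quasi-likelihood test and 0 by DESeq2, with 7 lower at an unadjusted p under 0.05. Their median log2 fold change was -0.38, which was -0.12 in replicate 1 and -0.62 in replicate 2.

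The histone genes H2BC4 and H1-2 rose further. Of 25 replication-dependent histone genes 18 were tested: 2 were called higher at 480 than at 240 µg/ml and 0 lower, against 0.0273% of all genes called higher. DESeq2 called 4 higher, and 12 were higher at an unadjusted p under 0.05, against 744 of 18303 genes. For 16 of 18 both 480 µg/ml libraries lay above both 240 µg/ml libraries, against 17.3% of all genes, all 18 had a log2 fold change above 0, and the median was 0.84 (0.68 for replicate 1 and 0.98 for replicate 2), against 0.88 for 240 µg/ml over control. H2BC4, an H2B gene of the large cluster on chromosome 6 (chr6:26113170-26123926), had 26.2 and 26.8 CPM at 480 µg/ml, against 10.3 and 8.23 CPM at 240 µg/ml, 4.52 and 3.00 CPM at 24 µg/ml and 3.02 and 2.99 CPM in control. Its log2 fold change was 1.52 ± 0.20 (adjusted p = 0.039), as large as the 1.62 of 240 µg/ml over control. H1-2, a linker histone gene of that cluster (chr6:26055740-26056470), had 76.9 and 94.2 CPM at 480 µg/ml, against 40.0 and 32.3 CPM at 240 µg/ml and 17.2 and 15.4 CPM in control (log2 fold change 1.24 ± 0.18, adjusted p = 0.0402). The 480 µg/ml libraries of both genes lay above all others.

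Other histone genes had values in the same direction without passing the test. H2BC8 had 2.65 and 3.06 CPM at 480 µg/ml, against 1.15 and 0.996 CPM at 240 µg/ml (adjusted p = 0.081), and H2BC12 had 41.0 and 58.0 CPM at 480 µg/ml, against 29.2 and 30 CPM at 240 µg/ml (adjusted p = 0.174). H2BC21 was nearly level, with 8.73 and 8.87 CPM at 480 µg/ml, against 8.01 and 8.29 CPM at 240 µg/ml. Most messages of this family end in a stem loop without a poly(A) tail, and the kit named in the labels selects poly(A) messages, so more message and a larger polyadenylated share of it cannot be told apart. Histone genes of 1 type are near-identical in their coding sequence, so the split of reads among them is uncertain. The histone list took 0.0230% and 0.0257% of counts at 480 µg/ml, against 0.0132% and 0.0121% at 240 µg/ml.

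**Figure D3:**
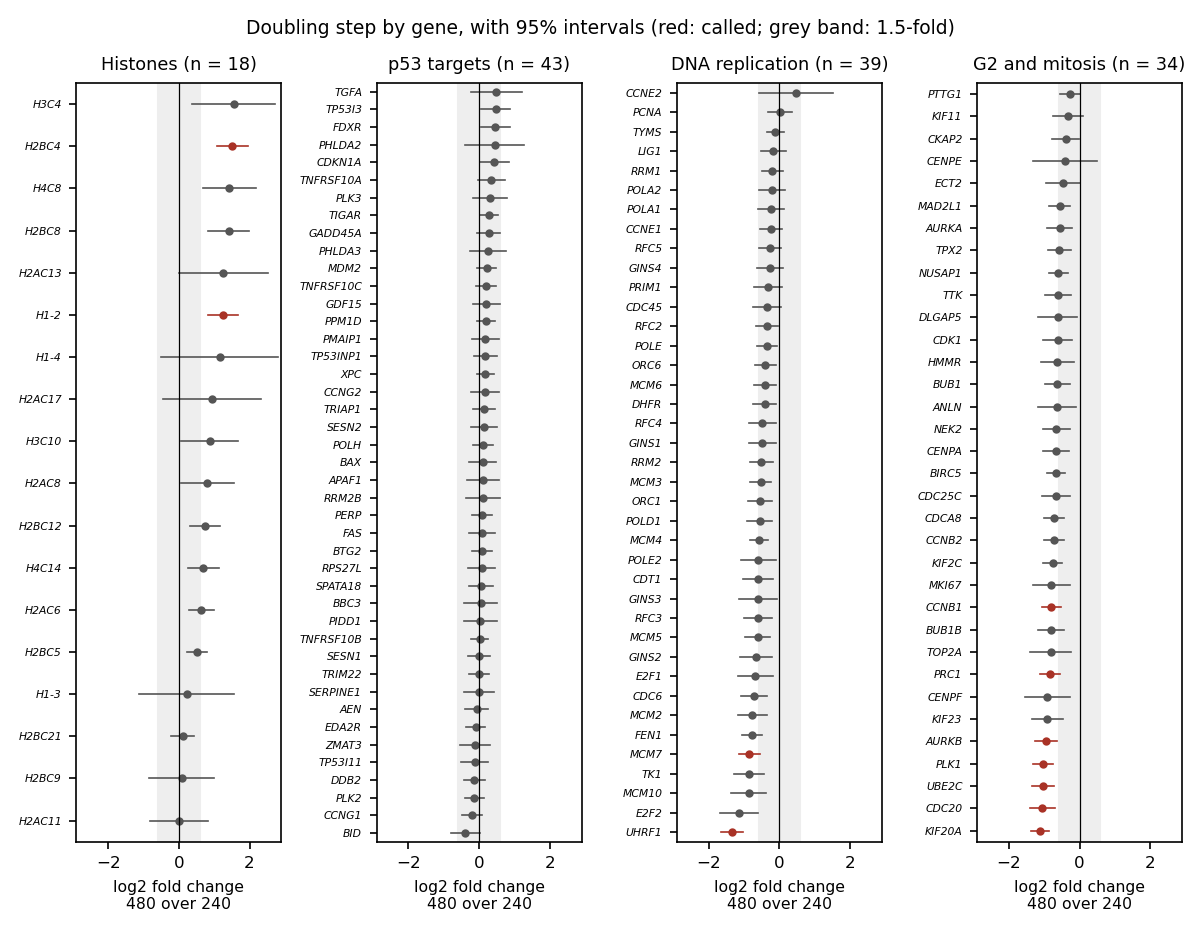
Log2 fold change of 480 over 240 µg/ml (x axis, points) with its 95% interval (lines) for each tested member of 4 lists (rows, gene names on the y axis), from edgeR's quasi-likelihood fit. Red marks called genes and the grey band a change within 1.5-fold; histone genes lie right of 0, p53 targets within or near the band, and replication and mitosis genes mostly left of 0.

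The other 3 genes that rose have no shared list. SEMA4F, a membrane semaphorin (chr2:74654247-74709411), had 11.3 and 14.2 CPM at 480 µg/ml, against 4.42 and 4.33 CPM at 240 µg/ml, 2.67 and 2.29 CPM at 24 µg/ml and 1.04 and 1.38 CPM in control (log2 fold change 1.55 ± 0.19, adjusted p = 0.0337). ELOVL4, an elongase of very long fatty acids, had 13 and 11.9 CPM at 480 µg/ml, against 6.22 and 5.57 CPM at 240 µg/ml (log2 fold change 1.08, adjusted p = 0.0402). MFSD1, a transporter of the lysosome membrane, had 30.9 and 25.8 CPM at 480 µg/ml, against 14.9 and 13 CPM at 240 µg/ml and 6.19 and 7.48 CPM in control (log2 fold change 1.03, adjusted p = 0.0402). For these 3 genes the levels stood in the order of the doses from 24 to 480 µg/ml, with no overlap between 240 and 480 µg/ml.

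Most p53 targets that had risen at 240 µg/ml met the 1.5-fold definition of levelled off, though more of them were higher than lower. Of the 43 genes on both p53 lists, all were tested, 29 had risen at 240 µg/ml against control and 2 had fallen. At the step to 480 µg/ml 0 of 43 were called by the quasi-likelihood test, which called 0.257% of all genes, and 0 by DESeq2, with 4 higher and 0 lower at an unadjusted p under 0.05. The median log2 fold change was 0.11, against 0.88 for 240 µg/ml over control. The step from 24 to 240 µg/ml spans 3.32 doublings. Its medians were 0.54 for arrest, feedback and repair and 0.11 for death and secreted targets. At the single doubling to 480 µg/ml these medians were 0.14 and 0.08. For 33 of 43 (76.7%) the 95% interval lay within 1.5-fold, a band that cannot tell a plateau from growth at such a rate per doubling. Since intervals are narrower for abundant genes, the nearer background is that of genes whose average log2 CPM was 3 or more, of which 69.6% had such an interval, against 31 of 38 (81.6%) of the p53 targets at that level. Of the 29 that had risen, 23 were levelled off and 6 not settled. Both 480 µg/ml libraries lay above both 240 µg/ml libraries for 12 of the 43 and below them for 3, against 17.3% and 19% of all genes. Among the 29 these counts were 10 and 1. The log2 fold change was above 0 for 20 of 25 genes of arrest, feedback and repair and 13 of 18 death and secreted targets. Across other fits with all libraries of the series the number within 1.5-fold was between 28 and 33 of 43. It was 13 without replicate 1 and 17 without replicate 2 at 240 µg/ml, and 18 in a fit of only the 4 libraries of the step. Without replicate 1 at 480 µg/ml, 5 of the 43 were called higher and 2 lower, and without replicate 2, 1 was called higher and 1 lower.

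FAS, a death receptor, had 24.3 and 21.2 CPM at 480 µg/ml, against 22.5 and 20.5 CPM at 240 µg/ml, 8.45 and 11.1 CPM at 24 µg/ml and 4.75 and 5.47 CPM in control. The groups at 240 and 480 µg/ml overlapped, and the log2 fold change was 0.08, with a 95% interval from -0.29 to 0.45. MDM2, the ubiquitin ligase that limits p53, had 498 and 421 CPM at 480 µg/ml, against 397 and 397 CPM at 240 µg/ml and 126 and 130 CPM in control (log2 fold change 0.21, interval -0.07 to 0.49). Both 480 µg/ml libraries of MDM2 lay above both 240 µg/ml libraries, by less than 1.5-fold. GDF15, a secreted stress cytokine, had 378 and 502 CPM at 480 µg/ml, against 416 and 350 CPM at 240 µg/ml, with overlap between the groups (log2 fold change 0.20, interval -0.18 to 0.58). TRIM22, an antiviral p53 target, had 21.5 and 20.5 CPM at 480 µg/ml, against 21.2 and 20.9 CPM at 240 µg/ml, and these groups lay on top of each other.

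Among the genes with the largest rise at 240 µg/ml, BBC3, the death gene also called PUMA, had 20.0 and 31.3 CPM at 480 µg/ml, against 23.4 and 26.2 CPM at 240 µg/ml. TNFRSF10C, a decoy receptor for TRAIL, had 32.3 and 29.2 CPM at 480 µg/ml, against 27.6 and 25.9 CPM at 240 µg/ml. HHAT, a palmitoyl transferase for hedgehog proteins, had 16.1 and 15.5 CPM at 480 µg/ml, against 13.1 and 13.3 CPM at 240 µg/ml. All 3 had intervals within 1.5-fold, as did INKA2, an inhibitor of the kinase PAK4, and SLC43A2, an amino acid transporter. Both 480 µg/ml libraries of TNFRSF10C and of HHAT lay above both 240 µg/ml libraries. The log2 change at this doubling minus the mean change per doubling between 24 and 240 µg/ml was -0.02 for TNFRSF10C (95% interval -0.36 to 0.31). It was -0.17 for HHAT (-0.54 to 0.21) and -0.17 for BBC3 (-0.71 to 0.38). ACTA2, smooth muscle actin, had 82.8 and 109 CPM at 480 µg/ml, against 86.9 and 93.9 CPM at 240 µg/ml and 20.4 and 17.1 CPM in control (log2 fold change 0.08, interval -0.27 to 0.44). ACTA2 (chr10:88935074-88991337) and FAS (chr10:88964050-89017059) overlap in RefSeq, and the strand counted is not given in the sources used here, so reads in their shared part are uncertain.

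CDKN1A and FDXR, with log2 fold changes of 2.03 and 2.60 for 240 µg/ml over control, were not settled at the step to 480 µg/ml. CDKN1A, the inhibitor p21, had 763 and 1149 CPM at 480 µg/ml, against 720 and 694 CPM at 240 µg/ml, 308 and 304 CPM at 24 µg/ml and 189 and 158 CPM in control. The log2 fold change was 0.43, with an interval from 0.02 to 0.85 and an adjusted p of 0.425, and the 480 µg/ml libraries lay far apart. FDXR, ferredoxin reductase, had 50.5 and 76.8 CPM at 480 µg/ml, against 47.3 and 45.5 CPM at 240 µg/ml (log2 fold change 0.46, adjusted p = 0.389). TP53I3, a quinone oxidoreductase, had 19.7 and 28.9 CPM at 480 µg/ml, against 18.7 and 16.5 CPM at 240 µg/ml (adjusted p = 0.38). In these 3 genes both 480 µg/ml libraries were above both 240 µg/ml libraries, replicate 2 by the larger margin.

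**Figure D4:**
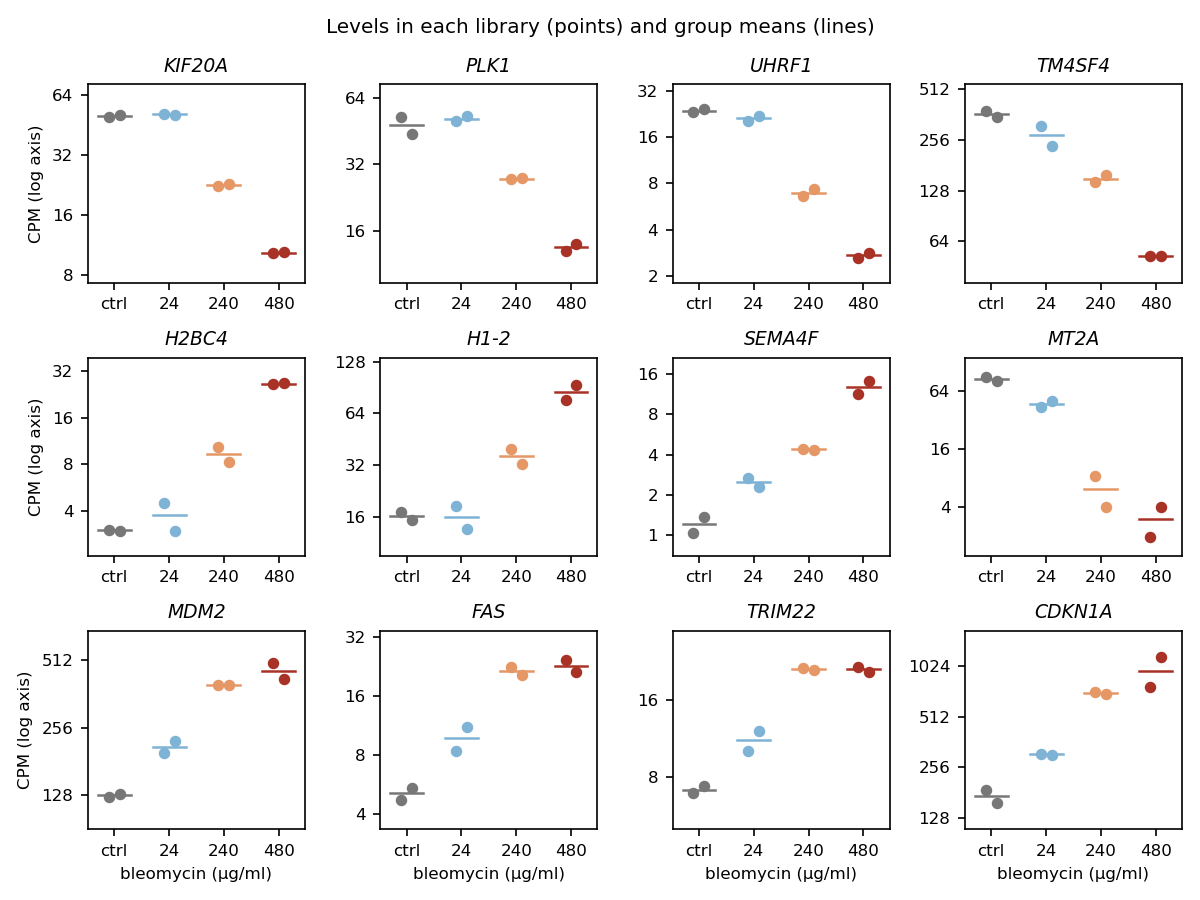
Level in CPM (log axis) in each library (points) and group mean (lines) for 12 genes, by bleomycin in µg/ml from untreated (ctrl) to 480. KIF20A, PLK1, UHRF1 and TM4SF4 are lower and H2BC4, H1-2 and SEMA4F higher at 480 than at 240 µg/ml, MT2A is lowest at the 2 high doses, and FAS and TRIM22 are level between 240 and 480 µg/ml.

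Genes of receptors and transporters found in gut, liver or pancreas were among the remaining calls, all lower. GLP1R, the receptor for glucagon-like peptide 1 (chr6:39048781-39091303), had 2.91 and 2.19 CPM at 480 µg/ml, against 8.43 and 11.9 CPM at 240 µg/ml and 21.8 and 24.4 CPM in control (log2 fold change -2.0 ± 0.23, adjusted p = 0.0311). SLC17A4, an anion transporter of intestine, had 1.32 and 0.956 CPM at 480 µg/ml, against 3.52 and 3.90 CPM at 240 µg/ml and 15.3 and 17.6 CPM in control (log2 fold change -1.71, adjusted p = 0.0337). TM4SF4, a membrane protein of liver and intestine (chr3:149474697-149503394), had 52.5 and 52.4 CPM at 480 µg/ml, against 143 and 157 CPM at 240 µg/ml, 309 and 235 CPM at 24 µg/ml and 379 and 347 CPM in control (log2 fold change -1.52 ± 0.15, adjusted p = 0.014). In all 3 the 480 µg/ml libraries were far below the others. SLC51A, a bile acid exporter subunit, fell to 1.63 and 1.80 CPM at 480 µg/ml, against 3.55 and 4.90 CPM at 240 µg/ml (adjusted p = 0.0474). CASR, the calcium-sensing receptor, fell to 2.56 and 2.54 CPM at 480 µg/ml, against 6.03 and 5.35 CPM at 240 µg/ml (adjusted p = 0.0383). These genes were grouped after their values were seen, and only SLC17A4 is on the intestinal list.

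Several further genes, not all known from gut or liver, fell at the step to 480 µg/ml without a call at 240 µg/ml against control. SLC1A3, a glutamate transporter, had 266 and 227 CPM at 480 µg/ml, against 429 and 481 CPM at 240 µg/ml and 399 and 416 CPM in control (log2 fold change -0.89, adjusted p = 0.0402). ANXA13, an intestinal annexin, had 76.3 and 78.6 CPM at 480 µg/ml, against 189 and 172 CPM at 240 µg/ml and 262 and 277 CPM in control (log2 fold change -1.22, adjusted p = 0.0435). In both genes 480 µg/ml stood alone below the other doses and control. CDHR3, a cadherin of airway cilia, had 30.1 and 24.6 CPM at 480 µg/ml, against 54.9 and 49.1 CPM at 240 µg/ml, 34.2 and 35.3 CPM at 24 µg/ml and 38.9 and 42.3 CPM in control (log2 fold change -0.92, adjusted p = 0.0402). EBF2, a transcription factor known from fat and mesenchyme, had 7.10 and 5.98 CPM at 480 µg/ml, against 15.4 and 16.5 CPM at 240 µg/ml and 19.3 and 21.3 CPM in control (log2 fold change -1.29, adjusted p = 0.0337).

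Also called at this step and not at 240 µg/ml against control were 8 genes, ADCY2, an adenylate cyclase, APCDD1, an inhibitor of Wnt signalling, ADAMTS8, a secreted metalloprotease, the spindle gene TROAP, and ERICH4, LHFPL3-AS2, LOC107986416 and LOC440982. LOC440982 was listed at 0 counts in both 480 µg/ml libraries, against 0.423 and 0.408 CPM at 240 µg/ml, so it was near the limit of detection. ADCY2 had 2.12 and 1.78 CPM at 480 µg/ml, against 4.53 and 5.27 CPM at 240 µg/ml and 3.97 and 3.39 CPM in control. ADAMTS8 had 0.456 and 0.486 CPM at 480 µg/ml, against 2.52 and 2.25 CPM at 240 µg/ml and 2.05 and 2.26 CPM in control. Neither gene's 480 µg/ml libraries reached the level of any other group. LHFPL3-AS2 is an antisense gene and its reads cannot be told from those of an overlapping partner where the strand counted is unknown. A call in one step and no call in another does not show that the steps differ.

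Of the whole lists for gut and liver, 1 of 17 intestinal genes was called lower by the quasi-likelihood test, against 0.229% of all genes, and 5 by DESeq2, with 1 higher and 6 lower at an unadjusted p under 0.05. The median log2 fold change was -0.58 for 480 over 240 µg/ml and -0.44 in each 480 µg/ml library. The size of this median depended on the 240 µg/ml libraries: it was -0.17 without replicate 1 and -0.76 without replicate 2 there. For 10 of the 17 both 480 µg/ml libraries lay below both 240 µg/ml libraries, against 19% of all genes. LGR5, a stem cell receptor of the intestine, had 1.49 and 1.12 CPM at 480 µg/ml, against 5.88 and 3.07 CPM at 240 µg/ml (log2 fold change -1.77, adjusted p = 0.0676). CDX2, the intestinal lineage factor, had 363 and 415 CPM at 480 µg/ml, against 307 and 312 CPM at 240 µg/ml (log2 fold change 0.33, adjusted p = 0.415), so the list did not move as 1 block. Of 20 hepatic genes 0 were called by the quasi-likelihood test, which called 0.257% of all genes, and 1 by DESeq2. At an unadjusted p under 0.05, 1 was higher and 5 lower, against 744 and 1311 of 18303 genes. Both 480 µg/ml libraries lay below both 240 µg/ml libraries for 8 and above them for 2, against 19% and 17.3% of all genes. The hepatic median was -0.20. FGA, a fibrinogen chain, had 1791 and 1932 CPM at 480 µg/ml, against 1216 and 1368 CPM at 240 µg/ml (log2 fold change 0.53, adjusted p = 0.383), and APOC3, an apolipoprotein, had 13.2 and 21.4 CPM at 480 µg/ml, against 38.7 and 48.1 CPM at 240 µg/ml (log2 fold change -1.33, adjusted p = 0.172).

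Other genes called lower share no list and are given together here after their values were seen. LIN28A, an RNA-binding protein of early development, had 4.07 and 3.82 CPM at 480 µg/ml, against 9.62 and 11.2 CPM at 240 µg/ml and 31.1 and 35.7 CPM in control (log2 fold change -1.40 ± 0.14, adjusted p = 0.014). ETV4, a transcription factor downstream of FGF signalling, had 17.8 and 25.0 CPM at 480 µg/ml, against 50.9 and 44.9 CPM at 240 µg/ml and 139 and 121 CPM in control (log2 fold change -1.16, adjusted p = 0.0402). KCNK5, an acid-sensitive potassium channel, had 5.59 and 7.80 CPM at 480 µg/ml, against 16.9 and 16.8 CPM at 240 µg/ml (log2 fold change -1.33, adjusted p = 0.0337). These genes were lower in both 480 µg/ml libraries than in any other library. PYCR1, the last enzyme of proline synthesis, fell by 1.12, AKR1B10, an aldo-keto reductase under NRF2, by 1.21, C2CD4A by 1.35, B4GALNT4, a glycosyltransferase, by 1.58 and TNFAIP8L1 by 1.07 on the log2 scale. Of 17 NRF2 targets, AKR1B10 was the 1 called by the quasi-likelihood test, DESeq2 called 1 higher and 1 lower, and the median log2 fold change was 0.04. FKBP1A-SDCBP2, also called lower, is a readthrough of neighbouring genes and shares reads with them. MYC had 10.7 and 14.5 CPM at 480 µg/ml, against 33.4 and 17.6 CPM at 240 µg/ml (log2 fold change -1.02, adjusted p = 0.215), with the 240 µg/ml libraries far from each other.

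Metallothioneins, small proteins that bind zinc and copper, were already low at 240 µg/ml and had values lower still at 480 µg/ml. Of the 8 tested genes of metallothioneins and zinc response, 0 were called by the quasi-likelihood test and 2 lower by DESeq2. The median over these 8 was -1.0, -0.45 without replicate 1 and -1.42 without replicate 2 at 240 µg/ml. All 5 tested MT1 and MT2 genes had fallen at 240 µg/ml against control, with a median log2 fold change of -3.79. At the step to 480 µg/ml, 4 of 5 were lower at an unadjusted p under 0.05, against 1311 of 18303 genes, and all 5 had both 480 µg/ml libraries below both 240 µg/ml libraries, against 19% of all genes, with a median of -1.23. MT2A had 1.96 and 4.04 CPM at 480 µg/ml, against 8.43 and 4.05 CPM at 240 µg/ml, 43.5 and 50.4 CPM at 24 µg/ml and 90.8 and 81.2 CPM in control (log2 fold change -1.04, interval -1.89 to -0.20, adjusted p = 0.332). MT1X had 0.140 and 0.632 CPM at 480 µg/ml, against 1.65 and 0.784 CPM at 240 µg/ml and 33.3 and 35.0 CPM in control (log2 fold change -1.61, adjusted p = 0.287). Replicates of both genes lay far apart at both high doses, and MT2A in replicate 2 of 480 µg/ml nearly met its lower 240 µg/ml value. These genes are close copies of each other, so the split of reads among them is uncertain. SLC30A1, a zinc exporter, had 59.1 and 44.3 CPM at 480 µg/ml, against 59.8 and 50.5 CPM at 240 µg/ml.

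Interferon response genes had 0 of 23 called by the quasi-likelihood test, which called 0.257% of all genes, and 0 by DESeq2. At an unadjusted p under 0.05, 7 were higher, against 744 of 18303 genes. For 12 of 23, both 480 µg/ml libraries lay above both 240 µg/ml libraries, against 17.3% of all genes. The median log2 fold change was 0.35 (0.42 for replicate 1 and 0.20 for replicate 2). IFI6, an antiviral membrane protein, had 7.93 and 8.88 CPM at 480 µg/ml, against 4.61 and 5.06 CPM at 240 µg/ml and 1.56 and 1.71 CPM in control (log2 fold change 0.80, adjusted p = 0.106). ISG15, a ubiquitin-like protein, had 11.7 and 14.8 CPM at 480 µg/ml, against 9.47 and 7.95 CPM at 240 µg/ml (log2 fold change 0.60, adjusted p = 0.252). IRF9, a factor that carries the interferon signal, had 18.5 and 22 CPM at 480 µg/ml, against 22.1 and 23.4 CPM at 240 µg/ml (log2 fold change -0.17). Lysosome and autophagy genes had 0 of 20 called by either tool and 2 higher at an unadjusted p under 0.05. Of these 20, 9 lay above without overlap, against 17.3% of all genes, and the median was 0.13.

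Genes tied to fibrosis had 0 calls at this step in the quasi-likelihood test, where 0.257% of all genes were called. Of 30 genes of epithelial to mesenchymal transition and matrix, 0 were called (2 lower by DESeq2, with 1 higher and 4 lower at an unadjusted p under 0.05). Their log2 fold change was below 0 for 22 of 30, with a median of -0.13. Both 480 µg/ml libraries lay below both 240 µg/ml libraries for 11 and above them for 3, against 19% and 17.3% of all genes. Of the 30, 12 had intervals within 1.5-fold. Of 24 genes of TGF-beta, activin and CCN signalling, 0 were called by either tool, 2 were lower at an unadjusted p under 0.05 and 13 had such intervals, with a median of -0.05. Intervals of this width were found for 41.7% of all genes and 69.6% of those averaging 3 or more in log2 CPM. COL1A1, a chain of type I collagen, had 37.8 and 50.1 CPM at 480 µg/ml, against 48.2 and 44.8 CPM at 240 µg/ml and 44.9 and 56.2 CPM in control, with overlap throughout. THBS1, thrombospondin 1, had 28.1 and 30 CPM at 480 µg/ml, against 49.6 and 41.7 CPM at 240 µg/ml and 70.9 and 82.4 CPM in control (log2 fold change -0.65, adjusted p = 0.2). TAGLN, a smooth muscle actin-binding protein, had 19.8 and 22.1 CPM at 480 µg/ml, against 10.7 and 15.2 CPM at 240 µg/ml and 61.0 and 39.4 CPM in control (log2 fold change 0.69, adjusted p = 0.346). Type 2 alveolar genes had 0 of 17 called by the quasi-likelihood test, 1 higher and 2 lower by DESeq2, and 2 higher and 5 lower at an unadjusted p under 0.05. Both 480 µg/ml libraries lay below both 240 µg/ml libraries for 8 of the 17 and above them for 4. The median was -0.37 in the fit but -0.25 in replicate 1 and 0.15 in replicate 2, so no direction is given for this list. ABCA3, higher in both 480 µg/ml libraries, had an adjusted p of 0.154, and SFTPB, lower in both, an adjusted p of 0.505.

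Genes of the mitochondrial genome and the ribosome divided the 480 µg/ml libraries. The 13 mitochondrially encoded genes had a median of -0.34 in replicate 1 and 0.77 in replicate 2 against the mean of 240 µg/ml, and the 32 cytosolic ribosomal protein genes had -0.47 and 0.00. Lists with a median well below 0 for 240 µg/ml over control that stood near 0 at the step to 480 µg/ml included cholesterol synthesis, with medians of -0.04 for 480 over 240 µg/ml and -0.42 for 240 µg/ml over control, heat shock proteins, with -0.05 and -0.45, and ATF4 targets, with 0.01 and -0.48. Fatty acid synthesis, with -0.01 and -0.42, was alike in this, and DESeq2 called 1 of its 11 genes lower. Mesenchymal genes had fitted medians of -0.08 and -0.41, but -0.23 in replicate 1 and -0.19 in replicate 2 at 480 µg/ml. Only 2 of these 11 genes had an interval within 1.5-fold. In each of the first 3 lists 0 members were called at the step to 480 µg/ml by the quasi-likelihood test, DESeq2 called 1 gene of cholesterol synthesis lower, and 3, 2 and 3 members had an unadjusted p under 0.05 in cholesterol synthesis, heat shock and ATF4 lists.

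**Figure D5:**
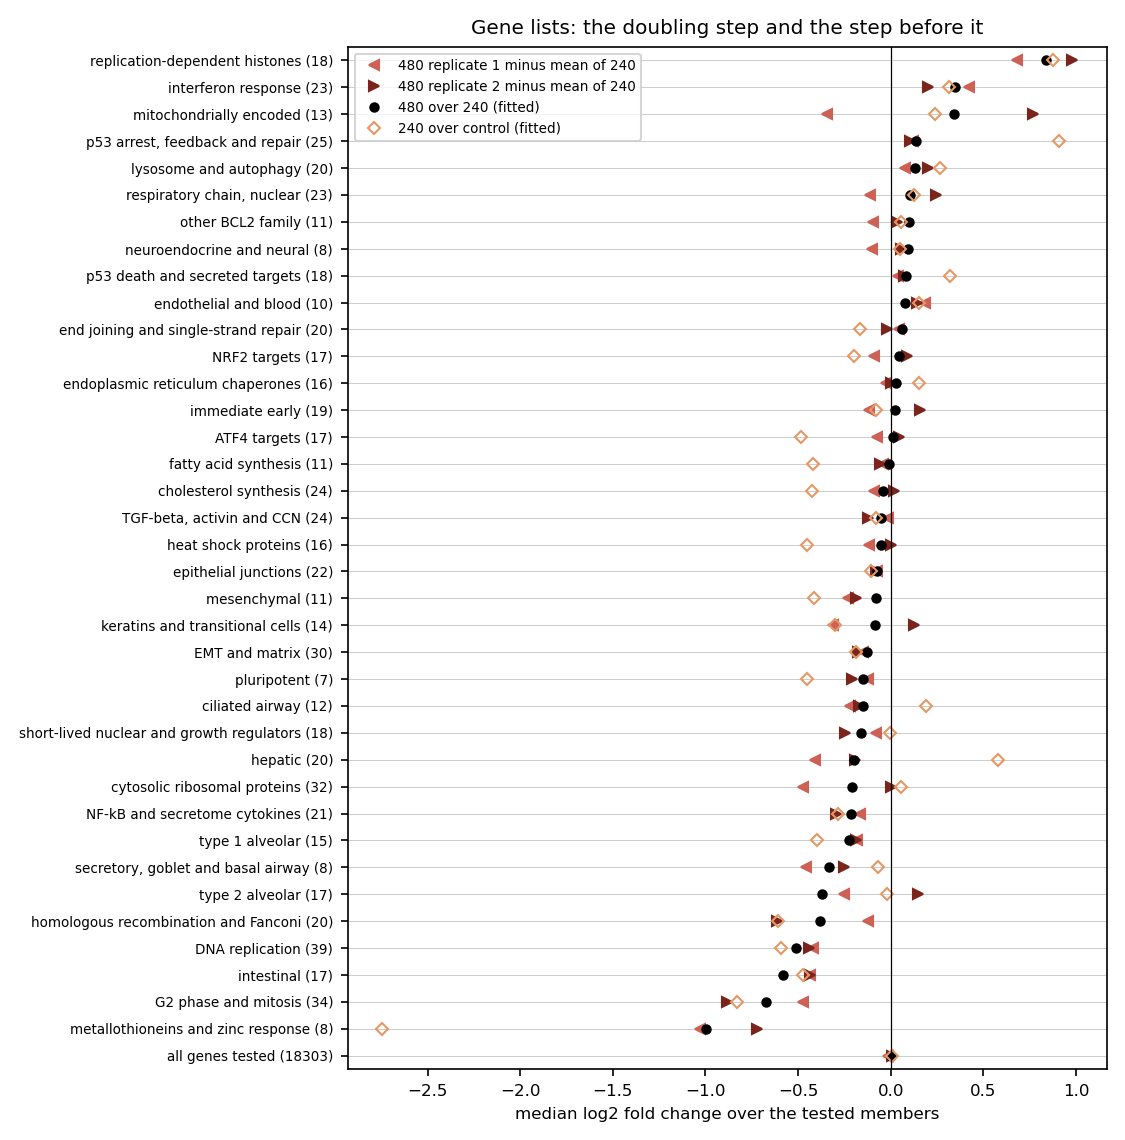
Median log2 fold change (x axis) over the tested members of each gene list (y axis, number tested in brackets), for 480 over 240 µg/ml as fitted (circles) and in each 480 µg/ml library (triangles), and for 240 µg/ml over control (diamonds). Histones, at 0.84, and metallothioneins, at -1.0, mark the ends of the step to 480 µg/ml. The p53 lists lie at 0.14 and 0.08 there, and at 0.91 and 0.32 for 240 µg/ml over control.

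The change per doubling of dose between 240 and 480 µg/ml was also set against the mean change per doubling between 24 and 240 µg/ml, which are 3.32 doublings apart. No gene passed in either direction by edgeR's quasi-likelihood test (0 of 18303, 0%), where 961 had an unadjusted p under 0.05 and 915.15 would be under it if p-values were uniform, and DESeq2 called 5 above and 57 below. By the smallest p among genes averaging 3 or more in log2 CPM, those with a lower slope at the last step were TM4SF4, CDHR3, EBF2, GLP1R, KIF20A and LIN28A, with differences of slope from -1.64 for GLP1R to -0.77 for KIF20A and adjusted p from 0.242 to 0.261. Of these, CDHR3 was higher at 240 than at 24 µg/ml (log2 fold change 0.58) before it fell, and the others were lower. At the same level, those with a higher slope at the last step were H2BC4, H1-2, TMX4, ALG6, DYNC1H1 and CDKN2B, with differences from 0.51 for DYNC1H1 to 1.12 for H2BC4. Among less abundant genes, ADAMTS8 had the smallest p of all (difference -2.43, adjusted p = 0.156) and SEMA4F the smallest of those with a higher slope (difference 1.3, adjusted p = 0.27).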

How the data were processed

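Messenger RNA was sequenced in 8 libraries (TruSeq stranded mRNA kit, 1 µg of total RNA, per the labels). The authors deposited counts, TPM and FPKM per gene symbol. Per the submitters' processing notes, Trimmomatic, HISAT2, Bowtie2 and StringTie and the build GRCh38 were used. Versions, annotation and the strand counted are not given in the sources used here. The deposited counts carry no normalization and were used in all tests. The deposited TPM values were not used in a test, and the deposited FPKM values served only to estimate transcript length from counts and FPKM.

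Groups came from the labels. edgeR 4.0.16 in R 4.3.3 was run with filterByExpr (at least 10 counts, 15 in total), TMM factors and a quasi-likelihood fit of all 8 libraries (group was the single factor), which leaves 4 residual degrees of freedom. Contrasts were 480 minus 240, 240 minus control, 480 minus control, and the difference in slope. P-values were adjusted by Benjamini-Hochberg over 18303 genes at a threshold of 0.05. The common dispersion was 0.0226, and the median 95% interval of a log2 fold change was 0.886 wide. Level differences per library used log2 CPM with a prior count of 2. The script was tested on simulated data in which a gene had the same spread in all groups. That test did not cover the wider spread of the 480 µg/ml libraries. Alternatives used DESeq2 1.42.0, limma 3.58.1 and other filters and scalings. No further per-sample column was left out.

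Genes were named by rule: the 12 highest and 12 lowest called fold changes whose average log2 CPM was 3 or more, the 8 largest levelled-off responders, up to 4 members of each of 37 lists, 6 on each side of the slope test, and 21 set genes. Other called genes are named because they were called (some are not reported here), and MT1 genes, histones, MCM7, MYC, PCNA, TRIM22 and others were chosen after their values were seen. The members and lists were chosen with earlier results of these data known. Symbols, positions and promoters came from RefSeq GRCh38.p14, which matched 42656 of 46427 symbols.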

Additional observations from a re-analysis of the deposited data

How the results depend on the processing

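The 47 genes called for 480 over 240 µg/ml kept their direction in all 17 alternatives in which they were present (46 of them under the stricter filter). These alternatives reuse the libraries from which the 47 were chosen. Counts moved more. Counts are given in the order genes higher, genes lower, responders still growing, responders levelled off, responders turned back, and slopes above and below. DESeq2 gave 38, 282, 192, 970, 12, 5 and 57. No filter on low counts gave 85, 380, 235, 1046, 34, 26 and 121. The stricter filter (50 counts in 2 libraries) gave 1 responder that turned back. A fit of only the 4 libraries of the step gave 0 higher and 0 lower, and gives no value for the other counts. A weight per group (limma voom, weight 0.297 for a 480 µg/ml library, 1.34 to 1.64 for others) gave 0 higher, 0 lower, 0 still growing and 1955 levelled off. A transcript length correction, chosen after seeing the data, gave 16, 123, 104, 1191, 4, 0 and 0. Median-ratio factors and removal of ribosomal, mitochondrial and AFP counts moved none of these counts by over 1.5 times. Leaving out each library in turn gave 0 to 615 higher, 0 to 1033 lower, 0 to 933 still growing, 21 to 2657 levelled off, 0 to 145 turned back, 0 to 5 slopes above and 0 to 32 below. The cause was not tested.

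Correlations of the replicate differences of same-numbered libraries ran from -0.08 to 0.04 over genes tested, and from -0.64 to 0.24 over genes averaging 3 or more in log2 CPM, where 3 of 6 pairs of groups were above 0 (0.24, 0.23 and 0.19). They were not positive in every pair, so the numbers were not taken to pair the samples. With the replicate number as a block, 0 genes were higher and 8 lower, with 6 responders still growing and 414 levelled off; 7 of the 47 were called again. With 2 libraries per dose, the smallest change called at the step was that of CCNB1 (log2 fold change -0.80). Larger changes, such as that of LGR5, were not called.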

Other observations

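Some of the transcripts that differed most between the 480 µg/ml libraries, among RefSeq genes averaging 4 or more in log2 CPM, are given here. They were chosen after their values were seen. UBN2, a chromatin gene with a transcript of 15.4 kb, had 34.3 CPM in replicate 1 and 5.28 CPM in replicate 2 at 480 µg/ml, against 26.4 and 24.9 CPM at 240 µg/ml. EEA1, a protein of early endosomes with a transcript of 10.5 kb, had 54.5 CPM in replicate 1 and 18.8 CPM in replicate 2 at 480 µg/ml, against 40.9 and 34.7 CPM at 240 µg/ml. At the other end, the ribosomal RNA gene RNA28SN3 had 3240 CPM in replicate 1 and 10353 CPM in replicate 2 at 480 µg/ml, against 4538 and 4661 CPM at 240 µg/ml. Less far out, the mitochondrial gene ATP6 had 779.6 CPM in replicate 1 and 1892 CPM in replicate 2 at 480 µg/ml, against 1124 and 911 CPM at 240 µg/ml. These genes have no settled direction between the doses, and none was called.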
